A study of Mus musculus with 12 samples.

Results

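Acetylcholine synthesis, breakdown and receptor genes were followed in laser-captured spinal cord astrocytes of the SOD1 G93A mouse, a transgenic model of amyotrophic lateral sclerosis. The 8 genes were named by symbol: Chat, Slc18a3, Slc5a7, Ache, Chrna7, Chrnb2, Chrna4 and Chrm2. They and the wider lists below were chosen with earlier results of these data known. Shares over all probe sets or genes given beside them are therefore descriptive and no independent test. All probe sets that the platform annotation assigns to 1 of these symbols were taken, which gave 12 of 45101 probe sets, for 7 of the 8 genes. No probe set carries the symbol Chrm2 in the annotation used here, so that gene has no value. Of the 12 probe sets, 9 of 6 genes were bright enough to be tested, among 26132 tested in all.

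The 4 groups were male SOD1 G93A transgenic mice and their male non transgenic (NTg) littermates at 90 days, the symptomatic stage, and male SOD1 G93A transgenic mice and NTg littermates at 120 days, the late stage. Each group had 3 mice with 1 Affymetrix array per mouse, 12 arrays in all, and all were of a line on the C57Bl/6 J Ola/Hsd background. By the labels 1500 astrocytes per animal were cut from lumbar cord sections. The transgene is a mutant human SOD1 carried throughout the body, so neurons and microglia near the captured cells carried it too. The study describes the captured RNA as coming from mixed cells with a significant part from astrocytes. It reports neuronal and microglial markers still present and oligodendrocyte contamination removed by the capture. Oligodendrocyte markers were bright on these arrays, as given below. Levels below are therefore those of the captures, not of astrocytes alone.

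Cholinergic neurons make acetylcholine from choline and acetyl-CoA with choline acetyltransferase (Chat). They load it into vesicles with the vesicular acetylcholine transporter (Slc18a3) and recover choline through the high-affinity choline transporter (Slc5a7). Acetylcholinesterase (Ache) ends the signal. Nicotinic receptors are ion channels built of several subunits, either of alpha7 (Chrna7) alone or of combinations such as alpha4 (Chrna4) with beta2 (Chrnb2), and Chrm2 encodes the M2 muscarinic receptor, which couples to inhibitory G proteins. In the ventral spinal cord the best known cholinergic cells are motor neurons and the interneurons that contact them, whereas astrocytes are known for responding to acetylcholine.

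Chat and Slc18a3 form a shared locus on mouse chromosome 14. In RefSeq on GRCm38.p6, Slc18a3 lies within Chat on the same strand, with annotated starts 1059 bases apart. The start regions of these 2 genes and of the 3 genes that passed the test at 120 days are shown because their levels are compared below. Each covers 250 bases before and 50 after the annotated start, 5′ to 3′ on the gene's own strand. Capitals mark matches to the GC box GGGCGG or its reverse complement CCGCCC. The positions are chr14:32465860-32466159 (minus strand) for Chat, chr14:32464801-32465100 (minus) for Slc18a3, chr5:137288004-137288303 (plus) for Ache, chr7:63212477-63212776 (minus) for Chrna7 and chr3:89764583-89764882 (minus) for Chrnb2.
Chat: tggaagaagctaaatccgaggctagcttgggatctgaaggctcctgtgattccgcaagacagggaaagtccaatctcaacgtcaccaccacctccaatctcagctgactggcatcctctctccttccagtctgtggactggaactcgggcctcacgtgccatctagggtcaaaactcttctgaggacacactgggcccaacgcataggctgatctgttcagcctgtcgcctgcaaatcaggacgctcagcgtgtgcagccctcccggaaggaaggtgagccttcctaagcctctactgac
Slc18a3: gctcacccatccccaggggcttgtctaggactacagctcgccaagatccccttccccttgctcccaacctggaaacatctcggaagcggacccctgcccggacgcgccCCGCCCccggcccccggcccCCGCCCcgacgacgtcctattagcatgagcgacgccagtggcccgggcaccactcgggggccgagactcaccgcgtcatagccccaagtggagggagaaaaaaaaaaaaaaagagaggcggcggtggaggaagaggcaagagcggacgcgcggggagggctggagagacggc
Ache: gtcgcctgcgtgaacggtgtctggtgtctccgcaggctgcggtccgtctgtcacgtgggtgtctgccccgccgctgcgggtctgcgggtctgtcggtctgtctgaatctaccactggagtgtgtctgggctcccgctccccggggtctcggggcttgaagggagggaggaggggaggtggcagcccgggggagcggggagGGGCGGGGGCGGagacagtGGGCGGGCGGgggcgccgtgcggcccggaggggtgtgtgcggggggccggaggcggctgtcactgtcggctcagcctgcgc
Chrna7: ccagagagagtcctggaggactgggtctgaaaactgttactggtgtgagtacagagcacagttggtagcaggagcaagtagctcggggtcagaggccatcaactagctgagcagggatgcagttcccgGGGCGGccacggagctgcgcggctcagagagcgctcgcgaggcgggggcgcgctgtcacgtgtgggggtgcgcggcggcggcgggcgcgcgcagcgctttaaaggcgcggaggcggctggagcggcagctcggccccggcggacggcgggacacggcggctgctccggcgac
Chrnb2: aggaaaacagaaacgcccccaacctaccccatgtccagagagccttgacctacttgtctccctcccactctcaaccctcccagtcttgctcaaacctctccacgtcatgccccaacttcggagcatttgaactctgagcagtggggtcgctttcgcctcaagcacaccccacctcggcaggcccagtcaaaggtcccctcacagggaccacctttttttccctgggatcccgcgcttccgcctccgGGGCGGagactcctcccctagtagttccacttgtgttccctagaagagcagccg

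The GC box, searched on both strands, was found 4 times at Ache, 3 times at Chrna4, 2 times at Slc18a3 and once each at Chrna7, Chrnb2 and Chrm2. It was not found at Chat or Slc5a7, and 35.7% of all 32851 RefSeq promoters of this length hold it. The E-box CACGTG, which reads the same on both strands, occurred once each at Chat, Ache and Chrna7, against 7.15% of all promoters. CpG dinucleotides numbered 35 at Chrna7, 33 at Chrna4, 30 at Ache and 27 at Slc18a3. They numbered 16 at Chrm2, 12 at Chrnb2, 10 at Chat and 1 at Slc5a7, with a median of 7 over all promoters. The paired starts of Chat and Slc18a3 thus differed in both counts. Of 2 core sequences of the RE1 element, which the repressor REST binds, AGCACC was found at none of the 8 genes and GGACAG at Chrm2 alone. These cores occur in 16.2% and 22.2% of all promoters. No motif was shared by all 3 genes that passed the test other than the GC box.

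Signals below are the deposited intensities, on a linear scale on which every array has a trimmed mean of 100. Log2 ratios are SOD1 G93A over NTg, computed after adding 7 to each signal and quantile-normalizing the arrays of each age. Their standard errors (SE) are moderated ones from limma, and p-values were adjusted by the Benjamini-Hochberg method over the 26132 probe sets. Array medians lay between 27.8 and 29.8 in SOD1 G93A and 24.9 and 30.4 in NTg mice at 90 days. They were 38.8 to 55.2 in SOD1 G93A and 27.9 to 37.1 in NTg mice at 120 days. The third SOD1 G93A array at 120 days stood apart, with a mean correlation of 0.835 with its group, against 0.880 for each of the other two and 0.914 to 0.952 in the other groups. Brightness differs between probe sets for technical reasons, so no probe set's level is set against another's.

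In the late-stage SOD1 G93A captures 3 of the 9 tested probe sets were lower than in the NTg captures and none was higher. These were Ache and the brightest probe sets of Chrna7 and Chrnb2, at 2.93-fold, 5.27-fold and 3.43-fold lower. Over all probe sets tested at 120 days, 3.86% passed the test as lower and 3.6% as higher. That split depended on the scaling, with 2834 of 3500 calls lower after median centring, 1046 of 2428 in the values as deposited and 1008 of 1948 here. In the symptomatic stage none of the 9 passed, where 0.138% of all probe sets passed in either direction. At an unadjusted p under 0.05, 2 of the 9 were counted at 90 days (1 lower, 1 higher), against 5.61% of all probe sets, and 5 at 120 days, all lower, against 15.1% of all probe sets in that direction. With a 2-fold change required as well, the kind of threshold the study used, 1 was counted at 90 days and 4 at 120 days, all lower, against 0.769% and 7.52% of all probe sets. After normalization the 3 SOD1 G93A arrays lay below the 3 NTg arrays for 1 of the 9 at 90 days and 4 of the 9 at 120 days, against 5.56% and 18.5% of all probe sets. Without the SOD1 G93A array that stood apart 2 of the 9 passed at 120 days, with log2 ratios of -2.20 for Chrna7, -1.62 for Chrnb2 and -1.09 for Ache, which was the one lost, and without NTg array 2 of that age 1 passed. The median log2 ratio of the 9 was -0.07 at 90 days and -0.67 at 120 days, where the medians of all probe sets were -0.00 and -0.07.

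**Figure D1:**
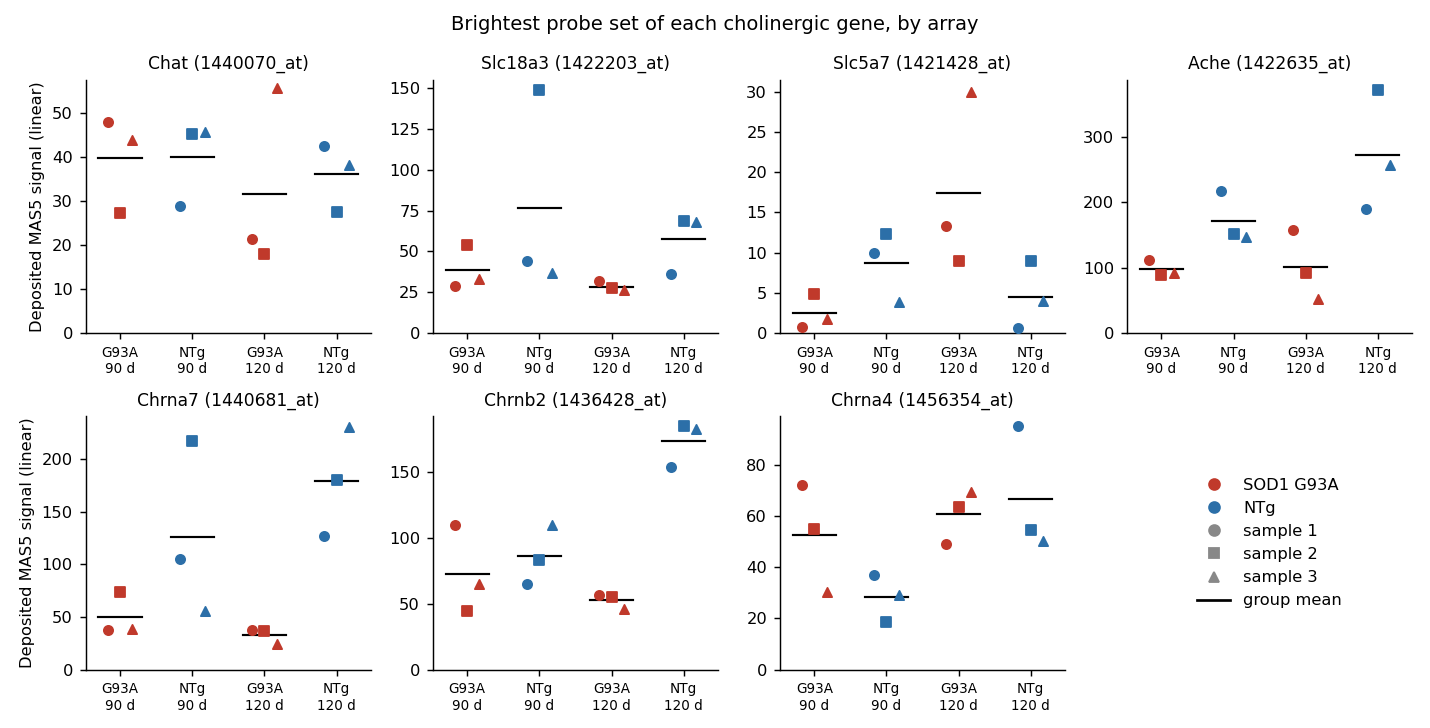
Deposited linear signal of the brightest probe set of each gene on the 12 arrays, with SOD1 G93A in red and NTg in blue, 1 symbol per mouse and a line at each group mean. At 120 days the SOD1 G93A and NTg arrays do not overlap for Slc18a3, Ache, Chrna7 and Chrnb2, and they overlap for Chat, Slc5a7 and Chrna4.

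Chat, the synthetic enzyme, was read by 1 probe set (1440070_at). Its signals were 48.0, 27.3 and 43.9 in SOD1 G93A mice and 28.8, 45.2 and 45.6 in NTg mice at 90 days. At 120 days they were 21.3, 17.9 and 55.6 in SOD1 G93A mice and 42.5, 27.4 and 38.2 in NTg mice. Both ages overlapped, and the third SOD1 G93A mouse at 120 days was above every NTg mouse of its age while the other two were below. On its own array that mouse's signal ranked at the 50.3rd percentile, against the 49.7th to 53.4th percentile in the NTg mice. The log2 ratio was -0.07 (SE 0.31, adjusted p = 1) at 90 days and -0.67 (SE 0.31, 95% interval -1.34 to -0.00, adjusted p = 0.193) at 120 days in limma, neither past the threshold.

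Slc18a3, the vesicular transporter nested in Chat, was read by 1422203_at. It had signals of 28.9, 53.8 and 32.9 in SOD1 G93A mice and 44.2, 149 and 36.7 in NTg mice at 90 days. At 120 days the signals were 31.6, 27.5 and 26.2 in SOD1 G93A mice and 35.9, 68.9 and 67.8 in NTg mice. The groups overlapped at 90 days, where 1 NTg mouse was far above the rest, and were separate at 120 days. In limma the log2 ratio was -0.70 (SE 0.45, adjusted p = 1) at 90 days and -1.14 (SE 0.45, 95% interval -2.11 to -0.18, adjusted p = 0.129) at 120 days. The separation at 120 days therefore did not pass the test. Without NTg array 2 of 90 days, the high one, the log2 ratio at that age was -0.10.

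Slc5a7, the choline transporter, was dim on every array and was not among the probe sets tested. Its signals (1421428_at) were 0.7, 4.9 and 1.7 in SOD1 G93A mice and 9.9, 12.3 and 3.9 in NTg mice at 90 days. At 120 days they were 13.3, 8.9 and 30.0 in SOD1 G93A mice and 0.6, 9.0 and 4.0 in NTg mice. The groups overlapped at both ages, and all 12 signals lay below the median of their own arrays. In a fit of all 45037 probe sets without the filter, Slc5a7 had -0.76 at 90 days (adjusted p = 1) and 0.64 at 120 days (adjusted p = 0.413) as log2 ratios.

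Ache, the degrading enzyme, was lower in the late-stage SOD1 G93A captures. Its probe set (1422635_at) had signals of 111.5, 89.3 and 91.5 in SOD1 G93A mice and 217.4, 151.2 and 146.9 in NTg mice at 90 days. At 120 days it had 157.1, 91.1 and 52.7 in SOD1 G93A mice and 190.5, 371.6 and 257.2 in NTg mice. Every SOD1 G93A mouse was below every NTg mouse of its age, at both ages. The log2 ratio was -0.79 (SE 0.40, 95% interval -1.66 to 0.08, adjusted p = 0.934) at 90 days. At 120 days it was -1.55 (SE 0.40, 95% interval -2.42 to -0.68, adjusted p = 0.0358 in limma). The 3 late-stage SOD1 G93A mice spread widely, with a standard deviation of 0.98 log2 units, against 0.41 in NTg mice. The call depended on single arrays: without SOD1 G93A array 2 or 3 the adjusted p was 0.0542 and 0.0818, and without NTg array 1, 2 or 3 it was 0.0523, 0.159 and 0.101. It also ended with the offset of 1 (0.0523), with no filter (0.0625) and with each age fitted alone (0.109), while the ratio kept its direction.

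Chrna7, the subunit of the alpha7 receptor, fell the furthest of the 9 probe sets at 120 days. Its brighter probe set (1440681_at) had signals of 37.4, 36.3 and 24.4 in SOD1 G93A mice and 126.7, 180.2 and 230.0 in NTg mice at that age. Every SOD1 G93A mouse was far below the lowest NTg mouse. At 90 days the signals were 37.3, 73.6 and 39.0 in SOD1 G93A mice and 104.7, 216.9 and 55.3 in NTg mice, where 1 mouse of each group crossed over. In limma the log2 ratio was -2.40 (SE 0.43, 95% interval -3.33 to -1.47, adjusted p = 0.00685) at 120 days. Only 21 of the 26132 probe sets tested had a lower log2 ratio. At 90 days it was -1.11 (SE 0.43, unadjusted p = 0.0238, adjusted p = 0.775), which did not pass. The call at 120 days was kept without each of the 12 arrays, with log2 ratios between -2.60 and -2.18.

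The dimmer Chrna7 probe set (1450299_at), below the filter, ran the other way at 120 days. It had signals of 23.1, 41.7 and 36.5 in SOD1 G93A mice and 13.1, 14.9 and 4.0 in NTg mice at 120 days. At 90 days they were 15.7, 11.3 and 13.5 in SOD1 G93A mice and 5.8, 13.4 and 12.5 in NTg mice. The deposited signals were separate at 120 days, as higher, which held for 17.5% of all probe sets tested, and they overlapped once normalized. Without the filter its log2 ratio was 0.22 at 90 days (adjusted p = 1) and 0.81 (SE 0.35, unadjusted p = 0.036, adjusted p = 0.219) at 120 days. The fall of Chrna7 thus rests on 1 of its 2 probe sets. Where in the transcript each probe set binds is not given in the sources used here.

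**Figure D2:**
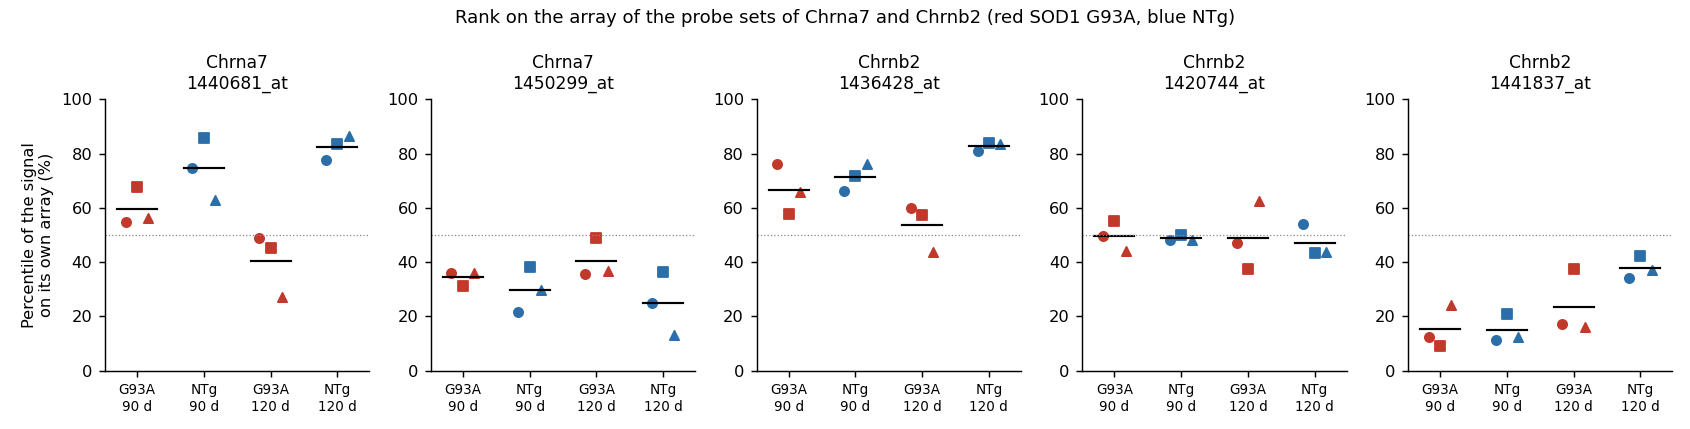
Percentile of each probe set's signal among all probe sets of its own array, for 2 probe sets of Chrna7 and 3 of Chrnb2, with SOD1 G93A in red, NTg in blue, 1 symbol per mouse, a line at each group mean and a dotted line at the array median. In late-stage mice 1440681_at and 1436428_at lie lower in every SOD1 G93A array than in every NTg array, and the other 3 probe sets overlap.

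Chrnb2, the beta2 subunit, was also lower in the late-stage SOD1 G93A captures by its brightest probe set. That probe set (1436428_at) had signals of 56.6, 55.4 and 46.1 in SOD1 G93A mice and 154, 185.5 and 183.1 in NTg mice at 120 days. At 90 days the signals were 109.9, 44.3 and 64.9 in SOD1 G93A mice and 65.4, 83.1 and 110.3 in NTg mice. The groups lay far apart at 120 days and were interleaved at 90 days. In limma the log2 ratio was -1.78 (SE 0.34, 95% interval -2.50 to -1.05, adjusted p = 0.00871) at 120 days and -0.32 (SE 0.34, adjusted p = 1) at 90 days. The call was lost without the second NTg array of 120 days, with a log2 ratio of -1.67 and an adjusted p of 0.0534.

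The second tested Chrnb2 probe set (1420744_at) did not follow it. It had signals of 34.8, 27.8 and 79.0 in SOD1 G93A mice and 43.4, 20.6 and 26.4 in NTg mice at 120 days, with a log2 ratio of 0.11 (95% interval -0.55 to 0.76, adjusted p = 0.856). At 90 days its log2 ratio was 0.05 (95% interval -0.61 to 0.71, adjusted p = 1). The remaining probe set (1441837_at), too dim to be tested, had 7.6, 27.7 and 10.7 in SOD1 G93A mice and 20.2, 19.7 and 20.4 in NTg mice at 120 days. Without the filter its log2 ratio was -0.78 at 120 days (unadjusted p = 0.0378, adjusted p = 0.224), against 0.03 at 90 days. When both tested probe sets were averaged, the log2 ratio of Chrnb2 at 120 days was -0.84, and it still passed the test.

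Chrna4, the alpha4 subunit that pairs with beta2, was read by 3 tested probe sets, and none passed at either age. The brightest (1456354_at) had signals of 72.1, 54.8 and 30.4 in SOD1 G93A mice and 37.1, 18.8 and 29.0 in NTg mice at 90 days. At 120 days they were 48.9, 63.3 and 69.5 in SOD1 G93A mice and 95, 54.6 and 50.2 in NTg mice. Both ages overlapped. In limma its log2 ratio was 0.68 (SE 0.31, unadjusted p = 0.0455, adjusted p = 0.875) at 90 days and -0.35 (SE 0.31, adjusted p = 0.5) at 120 days. The other 2 probe sets had log2 ratios of 0.04 (1421202_at) and 0.29 (1421203_at) at 90 days. At 120 days these were 0.21 and -0.30, with adjusted p-values of 0.741 and 0.646.

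**Figure D3:**
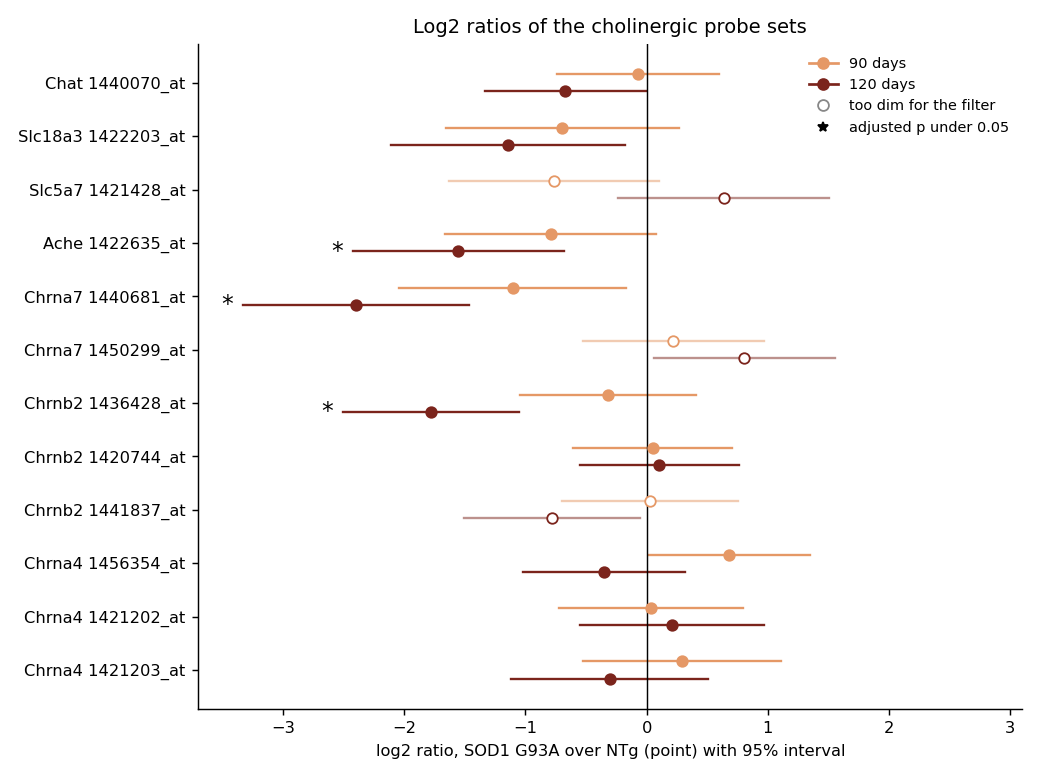
Log2 ratio of SOD1 G93A over NTg, with its 95% interval for the 12 probe sets at 90 days (light) and 120 days (dark). Open circles are probe sets too dim for the filter, fitted without it, and an asterisk marks an adjusted p under 0.05, which holds for Ache, 1 probe set of Chrna7 and 1 of Chrnb2 at 120 days.

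Whether the effect of the transgene differed between the ages was tested as the 120-day contrast minus the 90-day contrast. None of the 9 probe sets passed, and none of the 26132 did in limma, where 2414 (9.24%) had an unadjusted p under 0.05, and the count after adjustment was also 0 with the unmoderated test. By the 2-fold rule 2 of the 9 had a lower difference, against 3.7% of all probe sets. Those with the smallest unadjusted p were the probe sets of Chrnb2 (1436428_at), with a difference of -1.46 (SE 0.48, adjusted p = 0.435 in limma), and of Chrna4 (1456354_at), with -1.03 (SE 0.44, adjusted p = 0.516 in limma). For Chrna7 (1440681_at) the difference was -1.29 (95% interval -2.61 to 0.03, adjusted p = 0.55) and for Ache -0.76 (95% interval -1.99 to 0.47, adjusted p = 0.69). A call at 120 days and none at 90 days is thus not a shown difference between the stages.

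The levels over the 4 groups were ordered on arrays normalized all together. Chrna7 (1440681_at) was highest in NTg mice at 120 days, at 7.48 ± 0.42 (SD, n = 3) log2 units, followed by NTg mice at 90 days (6.89 ± 0.86), SOD1 G93A mice at 90 days (5.87 ± 0.41) and SOD1 G93A mice at 120 days (4.86 ± 0.55). Of the neighbours in that order, only the last 2 groups did not overlap. Ache had the same order, with 8.05 ± 0.43, 7.47 ± 0.26, 6.73 ± 0.20 and 6.37 ± 1.07 log2 units, and its only gap lay between NTg and SOD1 G93A mice at 90 days. For Chrnb2 (1436428_at) the order was also the same, with 7.48 ± 0.14, 6.60 ± 0.34, 6.31 ± 0.59 and 5.54 ± 0.46 log2 units, and the gap lay between the 2 NTg groups. For Slc18a3 the lowest group, SOD1 G93A mice at 120 days, was at 4.68 ± 0.37 log2 units and separate from SOD1 G93A mice at 90 days at 5.59 ± 0.35. All groups of Chat and Slc5a7 overlapped with their neighbours. The 2 ages are different mice, and a change with age was not tested.

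**Figure D4:**
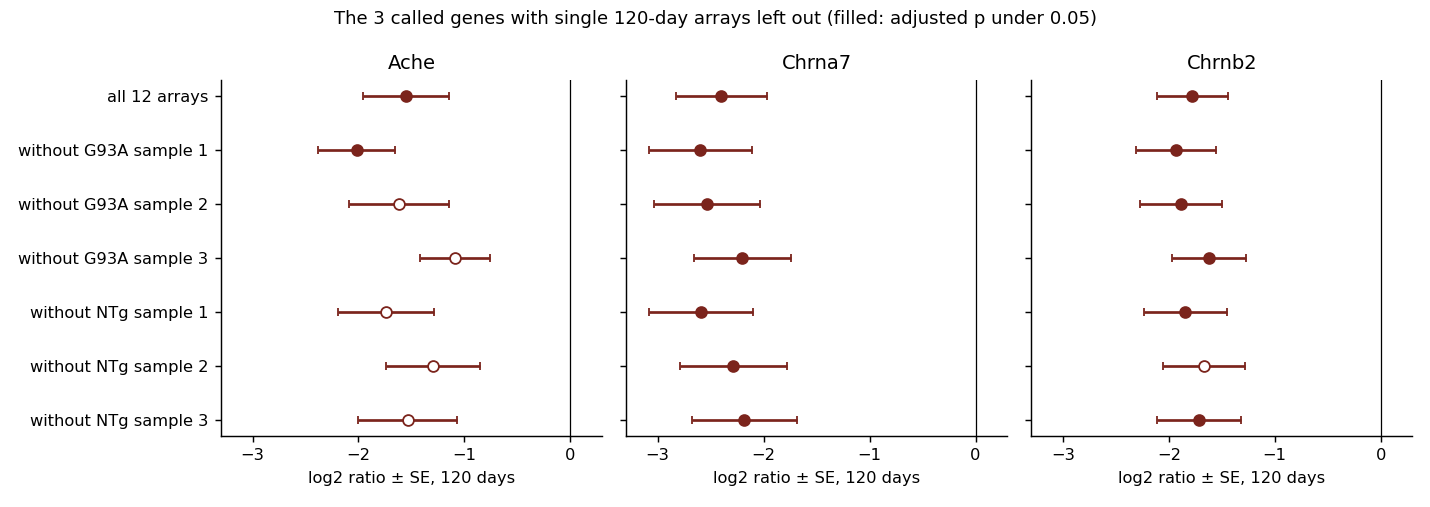
Log2 ratio ± standard error at 120 days for Ache, Chrna7 (1440681_at) and Chrnb2 (1436428_at) with all 12 arrays and without single 120-day arrays, where filled points have an adjusted p under 0.05. Chrna7 stays filled throughout, Chrnb2 is open without NTg sample 2, and Ache is filled without SOD1 G93A sample 1 and open without each of the other 5 arrays.

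The wider cholinergic system was taken from 8 lists of 63 genes, 58 of them with a probe set and 41 with a tested brightest probe set. None passed at 90 days. At 120 days 2 were higher and 6 lower (4.88% and 14.6% of the 41), where 4.14% and 4.47% of 12429 genes were higher and lower by the same rule. Of the 6, Kcnq5 entered the test through NTg arrays alone, as described below. The count at 120 days was 4 without SOD1 G93A array 3, 1 without NTg array 2 and 2 without NTg array 3. The median log2 ratio at 120 days was -0.31 over the 41 genes and -0.08 over all genes. Beyond Chrna4, Chrna7 and Chrnb2, 12 of 13 other nicotinic subunits had a probe set but only Chrnb4 was bright enough, with a log2 ratio of 0.41 (adjusted p = 0.606) at 120 days. Of the other muscarinic receptors only Chrm1 was tested, with 0.22 (adjusted p = 0.673).

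Of 8 genes that help nicotinic receptors fold or tune them, 3 passed at 120 days, all lower, where 4.47% of all genes were lower. Tmem35a, which encodes the chaperone NACHO needed to assemble alpha7 receptors, had signals of 126.1, 97.0 and 58.2 in SOD1 G93A mice and 164.3, 318.5 and 240.2 in NTg mice. These groups were separate, which held as lower for 15.8% of all probe sets tested. The log2 ratio of Tmem35a was -1.41 (SE 0.35, adjusted p = 0.0304 in limma). Lypd6b, a relative of snake toxins that modulates nicotinic receptors, had 226.2, 165.1 and 193.7 in SOD1 G93A mice and 450.3, 749.5 and 421.6 in NTg mice, a log2 ratio of -1.27 (adjusted p = 0.0205). Its neighbour in the family, Lypd6, had a log2 ratio of -1.68 with an adjusted p of 0.0499, at the edge of the threshold. Lynx1, another modulator of this family, had -0.83 (adjusted p = 0.111), and the chaperone Ric3 0.02 (adjusted p = 0.979).

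Acetyl-CoA for the synthesis comes from pyruvate dehydrogenase and from exported citrate. All 5 genes of that list had negative log2 ratios at 120 days, between -0.90 and -0.74. Among all genes 6866 of 12429 had a negative ratio at that age, with a median of -0.08. Only Slc25a1, the mitochondrial citrate carrier, passed, with 324.7, 246.2 and 260.5 in SOD1 G93A mice and 467.3, 705.7 and 576.3 in NTg mice and a log2 ratio of -0.88 (adjusted p = 0.0473). Choline uptake and phosphorylation genes had no call among 8 tested, and the choline transporter-like gene Slc44a2 had 0.98 (adjusted p = 0.0521). Of the genes that anchor esterases, Prima1, which anchors acetylcholinesterase in the membrane of neurons, had -0.57 (adjusted p = 0.374), and Bche, butyrylcholinesterase, -0.07 (adjusted p = 0.902).

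Channels and G proteins downstream of the receptors moved both ways at 120 days. Kcnj3, a subunit of the potassium channel that muscarinic M2 receptors open, had signals of 52.6, 67.1 and 37.6 in SOD1 G93A mice and 184, 209.6 and 197.3 in NTg mice, a log2 ratio of -1.98 (SE 0.30, adjusted p = 0.00254). At 90 days it had 45.2, 55 and 47.0 in SOD1 G93A mice and 146.2, 103.8 and 91.3 in NTg mice, -1.13 as a log2 ratio (adjusted p = 0.319), so the groups were separate at both ages. In deposited signals such a separation, as lower, held for 4.86% of all probe sets tested at 90 days and 15.8% at 120 days. Kcnq5, of the M-current channels that muscarinic receptors close, had -2.27 at 120 days (adjusted p = 0.0123). Its signals were 2.5, 33.2 and 6.7 in SOD1 G93A mice and 62.2, 55.4 and 71.6 in NTg mice. Every SOD1 G93A signal, at both ages, lay below its array's median, so Kcnq5 entered the test through NTg arrays alone. The signals 2.5 and 6.7 are below the offset of 7, so the size of the ratio is imprecise. Gnai2, an inhibitory G protein that microglia also express strongly, was higher, at 1.04 (adjusted p = 0.03). Among the transcription factors, Rest, the repressor of neuronal genes, was higher, with 225.8, 234.7 and 370.6 in SOD1 G93A mice and 110, 77.6 and 113.1 in NTg mice, a log2 ratio of 1.41 (adjusted p = 0.0156). The motor neuron factors Isl1 and Mnx1 had log2 ratios of -0.16 and -0.76 (adjusted p = 0.858 and 0.337), and Lhx4 -1.25 (adjusted p = 0.136).

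**Figure D5:**
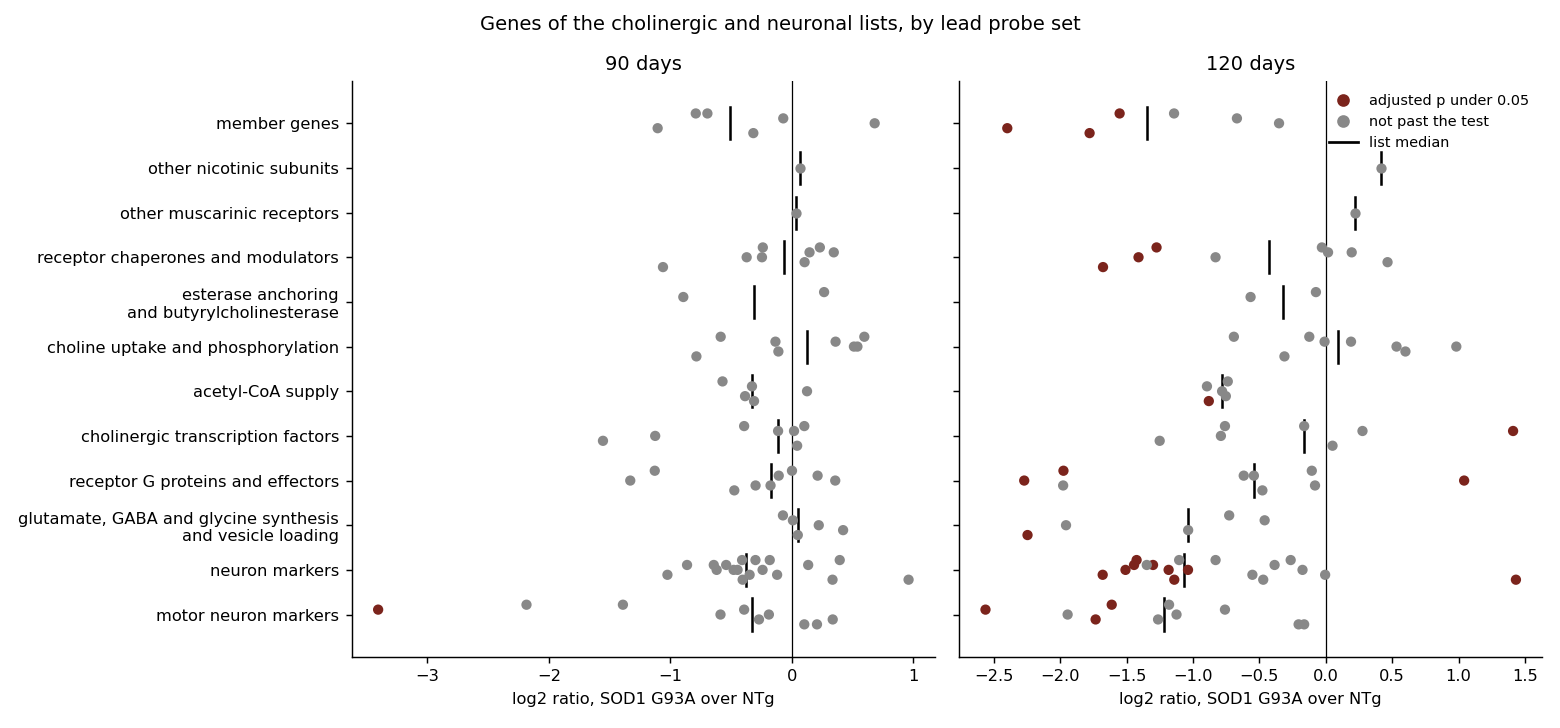
Log2 ratio of SOD1 G93A over NTg for the brightest probe set of each gene in the cholinergic lists, the list of other transmitters and 2 neuronal marker lists at 90 days (left) and 120 days (right), with dark points past an adjusted p of 0.05 and a bar at each list's median. The medians at 120 days were -1.35 for the 6 tested genes of synthesis, breakdown and receptors, -1.07 for neuron markers and -1.22 for motor neuron markers.

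Other transmitters were read beside acetylcholine. Of 5 tested genes for glutamate, GABA and glycine synthesis, uptake or vesicle loading, 1 passed at 120 days, as lower. No gene of synthesis or vesicle loading was called. The 1 called was Slc6a5, the glycine uptake transporter of inhibitory neurons. Its signals were 323.5, 367.2 and 118.3 in SOD1 G93A mice and 995.2, 1244.7 and 1420.8 in NTg mice, a log2 ratio of -2.25 (adjusted p = 0.0202). The vesicular transporters Slc17a6 (glutamate) and Slc32a1 (GABA and glycine) had -1.96 and -1.04 (adjusted p = 0.0805 and 0.0801). The list's median was -1.04 at 120 days and 0.05 at 90 days.

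Markers of other cells were present in these captures, and some of them differed between the genotypes at 120 days. All 18 neuron markers were tested, and at 120 days 8 were lower and 1, Gap43, higher, with a median of -1.07. Among all genes tested at that age 4.47% were lower and 4.14% higher. The summed signal of the list ran between 17485 and 27805 in SOD1 G93A mice and between 34899 and 46126 in NTg mice at 120 days. At 90 days it was 29591 to 38526 in SOD1 G93A mice and 37994 to 43922 in NTg mice, with no marker called and a median of -0.38. The defining neuron markers Snap25 and Rbfox3 were far from 0 on every array, and at 120 days had log2 ratios of -1.43 and -1.14 (adjusted p = 0.0277 and 0.0331). Of 10 tested motor neuron markers Chodl, Mmp9 and Esrrg were lower at 120 days, and Chodl alone at 90 days, where 0.0402% of all genes were lower. The summed signal of the motor neuron list was 946.5 to 2193 in SOD1 G93A mice and 2654 to 4247 in NTg mice at 120 days. The part of neuronal RNA in the falls of Ache, Chrna7 and Chrnb2 was not tested, and fewer neurons cannot be told apart from less RNA per cell in such samples.

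Markers of glia were counted in the same way, where 4.14% of all genes were higher at 120 days and 0.185% at 90 days. Of 12 astrocyte markers, Gfap, Aldh1l1 and Sox9 were higher at 120 days, with log2 ratios of 4.79, 1.22 and 1.53, and none passed as lower. Aqp4 had 0.93 (adjusted p = 0.302). Of the 12, 4 had negative log2 ratios, the lowest -0.80, and the list's median was 0.31. The astrocyte sum was 18456 to 28689 in SOD1 G93A mice and 16245 to 19803 in NTg mice at 120 days, so the labelled cell type was present. Of 10 tested microglia markers 3 (Trem2, C1qa and C1qc) were higher at 90 days and 8 at 120 days, among them Cx3cr1 with a log2 ratio of 1.74. Trem2 had NTg signals of 8.1, 3.3 and 6.9 at 90 days and 5.2, 1.5 and 6.3 at 120 days. All lay below their array's median, so Trem2 entered the test through SOD1 G93A arrays alone. Most of them are under the offset of 7, so the size of its ratio is imprecise. P2ry12 and Tmem119 had 0.70 and 1.17 (adjusted p = 0.117 and 0.131). The microglia sum was 9081 to 11062 in SOD1 G93A mice and 1559 to 1737 in NTg mice at 120 days. Among oligodendrocyte markers 1 of 10, Opalin, was higher, while Mog had 0.35 (adjusted p = 0.537). Mbp topped its arrays, where quantile normalization sets all arrays of an age to 1 value, so it has no usable ratio. Its deposited signals at 120 days were 18606, 18186 and 29553 in SOD1 G93A mice and 14035, 11516 and 12594 in NTg mice, and the groups did not overlap. As higher, that held for 17.5% of all probe sets tested. The oligodendrocyte sum was 38347 to 50078 in SOD1 G93A mice and 24116 to 30951 in NTg mice at 120 days, also without overlap, although the list's mean normalized log2 signals overlapped (9.87 to 10.66 in SOD1 G93A mice and 9.67 to 10.31 in NTg mice). At 90 days the sum was 37405 to 62963 in SOD1 G93A mice and 31506 to 55515 in NTg mice. Pdgfra of precursors, Cldn5 of endothelium and Foxj1 of ependyma had -0.19, 0.39 and -0.28, none past the threshold.

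For each tested gene the 3 genes with the most similar pattern were found by the root-mean-square difference of log2 signals over the 12 arrays, after each gene's mean at each age was subtracted. For Chrna7, whose own deviations had a root mean square of 1.06, they were Slc6a15 (0.28), Oprl1 (0.35) and Tnfrsf21 (0.35). For Chrnb2 (0.73) they were Adam23 (0.17), Paqr9 (0.25) and Armh4 (0.27). The log2 ratios of these 6 genes at 120 days lay between -2.41 and -1.25, which the choice fixes, since the genotype difference was part of the pattern matched. For Ache (0.77) they were Ntng1 (0.22), Fgf12 (0.24) and Pcdhb20 (0.25). For Slc18a3 (0.70) they were Fgf1, Kctd8 and Ackr1, for Chat (0.39) Kcnu1, Dalir and Haus4, and for Chrna4 (0.41) Hdac11, Zfp385a and Usp6nl.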

How the data were processed

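The deposited values are linear signal intensities that the authors made with MAS5 from Affymetrix Mouse Genome 430 2.0 arrays and scaled to a trimmed mean of 100. The version of MAS5 is not given in the sources used here. Labels name toluidine blue and the methods ALDH1L1 staining, and the study's own statistics used the PLIER summary, which these values are not. An offset of 7, the 20th percentile, was added to the intensities before log2 was taken, and arrays were quantile-normalized within each age, since array medians at 120 days spanned 0.83 log2 units. The 64 control probe sets of 45101 were excluded, and 26132 that exceeded their array's median on at least 3 arrays entered the test. Present calls were not analysed here, so dim signals carry little precision, and the 12 arrays limit it further.

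limma 3.58.1 (R 4.3.3) fitted 4 group means with 8 residual degrees of freedom, with contrasts at each age and their difference. p-values were two-sided and adjusted after Benjamini and Hochberg, with a threshold of 0.05. The steps were tested on simulated data. Genes outside the 8 are represented by their brightest probe set that has 1 symbol. The named genes are the 8 with all probe sets, list genes that passed, up to 3 more of the brightest per list, the brightest and defining markers, and the 3 nearest genes of each. Markers named for a small count of calls (Gap43, Sox9, Chodl, Mmp9, Esrrg, Opalin, Trem2 and C1qc) were chosen after their values were seen. Members and lists were chosen with earlier results of these data known. Start regions come from RefSeq on GRCm38.p6, with all 8 genes matched. Figures were drawn with matplotlib 3.10.9. Alternatives tried were other normalizations, offsets, filters, priors, weights and call rules, a replicate block, each age alone and leaving out each array.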

Additional observations from a re-analysis of the deposited data

How the results depend on the processing

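Chrna7 (1440681_at) kept its direction and its call at 120 days under all alternatives run, with log2 ratios from -2.66 to -1.74 and, without each array in turn, from -2.60 to -2.18. Chrnb2 (1436428_at) ranged from -1.99 to -0.84, the last when its 2 tested probe sets were averaged, and from -1.94 to -1.62 without single arrays, where the call was lost once. Ache at 120 days lost its call with an offset of 1 (-1.64, adjusted p = 0.0523), and at -1.55 with no filter (adjusted p = 0.0625), each age fitted alone (0.109), and an unmoderated test (0.093). Without single arrays it ran from -2.02 to -1.09. The count of the 9 probe sets passing at 120 days was 1 to 3 without single arrays, lowest without NTg array 2, and 2 to 4 under other settings. By a 2-fold change and an unadjusted p of 0.05 it was 1 at 90 days and 2 for the difference. The 8 wider cholinergic genes passing at 120 days became 12 with median centring (11 lower), 12 with the trended and robust prior (9 lower), 11 with the offset at the 50th percentile, 4 with no filter, 2 with each age alone, 5 with the unmoderated test and 1 to 9 without single arrays. At 90 days, where none passed, 1 did with array weights and 5 by the 2-fold rule. Chat at 90 days turned to 0.067 with array weights and ran from -0.25 to 0.15 without single arrays, turning positive without the second SOD1 G93A or NTg array of that age. Over all probe sets 759 to 3500 passed at 120 days and 13 to 462 at 90 days, and 0 to 1825 for the difference, against 1948, 36 and 0. Without single arrays these were 475 to 2432, 12 to 60 and 0 to 11. The causes of these shifts were not tested. Leaving out an array also lowered the number of arrays, and dropping the filter raised the number of probe sets tested.

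The main fit did not pair the mice by the sample numbers of the labels. Correlations of same-numbered deviations lay between -0.28 and 0.28 at 90 days and between -0.07 and 0.04 at 120 days. Those of differently numbered mice lay between -0.36 and 0.46 at 90 days and between -0.05 and 0.06 at 120 days. With 3 arrays per group such correlations cannot show whether mice were paired. With the replicate block, Ache at 120 days had -1.55 (adjusted p = 0.0609), 3 of the wider genes passed at 120 days, and 1063 of all probe sets passed at 120 days and 17 at 90 days. Signals are set to a common mean on each array, so a change in total RNA would not be seen, and probe sets near the offset have understated folds.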
